A study of Salmo salar with 40 samples.

Results

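The antioxidant gene set of the Atlantic salmon liver comprised the entries of the deposited read-count table whose gene description contains peroxiredoxin, glutathione peroxidase, superoxide dismutase, catalase, thioredoxin reductase, glutaredoxin, glutathione reductase, glutamate--cysteine ligase, heme oxygenase, metallothionein, sulfiredoxin or selenoprotein, in any case. This wording found 91 of 79140 entries, and 79 of them had enough reads to be tested, among 30397 tested entries in all. They were counted here as 24 selenoproteins, 14 glutaredoxins, 13 glutathione peroxidases, 11 peroxiredoxins, 8 heme oxygenases, 5 superoxide dismutases, 4 thioredoxin reductases, 4 subunits of glutamate-cysteine ligase, 3 catalases, 3 metallothioneins, 1 glutathione reductase and 1 sulfiredoxin. Some entries carry a family's name without being one of its enzymes: ccs is the copper chaperone that loads superoxide dismutase, and the glutaredoxin domain-containing cysteine-rich proteins are counted with the glutaredoxins. Many members come as duplicated genes, and 57 of the 91 have only a LOC identifier.

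Liver mRNA was sequenced from 40 Atlantic salmon, 1 library per fish, in 4 groups of 10. Exposed fish had received lufenuron, a sea lice drug of the benzoylurea class that stops arthropods from making chitin, at a dose of 5 mg per kg, and control fish had received a dose of 0. Fish of both kinds were collected at day 8, which was 1 day after the treatment period had ended, and other fish of both kinds at day 14, which was 7 days after it. The comparisons address whether lufenuron alters liver gene expression and whether an effect lasts. Body weight ran from 34 to 44 g at day 8 and from 17 to 67 g at day 14. In that later group, 3 control fish were recorded at under 20 g. These were fish 6, 7 and 10, with lengths of 11.9, 16.5 and 15.4 cm. Control fish 1 and 5 of that day were 16.3 and 15.9 cm long and weighed 42 and 46 g. The weights of fish 7 and 10 are thus low for their lengths, and whether they were recorded wrongly is not known. The sources used here do not give strain, sex, age, feed or tank. The p-values therefore rest on the spread among these fish, and a tank shared by a group cannot be told apart from its treatment or day.

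Cells remove superoxide through superoxide dismutases, which turn it into hydrogen peroxide, and catalase, glutathione peroxidases and peroxiredoxins then reduce the peroxide. The reducing power comes from NADPH through glutathione reductase and thioredoxin reductase, and glutamate-cysteine ligase makes the first, rate-limiting step of glutathione synthesis. Heme oxygenase breaks heme down to biliverdin, iron and carbon monoxide, metallothioneins bind zinc and copper, and the liver secretes selenoprotein P, which carries selenium to other tissues. In mammals many of these genes are switched on together by the transcription factor NRF2, which KEAP1 holds back.

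Gene-assigned reads ranged from 43.4 M to 76.8 M per fish around a median of 56.7 M. Levels are given as CPM, counts scaled to a common depth on TMM-adjusted library sizes, at which 1 CPM stood for at least 41.8 reads. All 18 hepatocyte marker entries had reads, with a summed level of 86754 to 170140 CPM over the 40 fish. Markers of other cells were present too and did not stay level: summed erythrocyte markers averaged 1625 ± 345 CPM in controls against 1534 ± 317 CPM in exposed fish at day 8, and 2481 ± 712 and 2537 ± 1064 CPM at day 14 (SD, n = 10 each). Stroma markers averaged 565 ± 139 and 709 ± 198 CPM at day 8 and 405 ± 97.6 and 507 ± 168 CPM at day 14, and exocrine pancreas markers averaged 31.0 ± 42.5 and 73.2 ± 75.0 CPM at day 8 and 39.4 ± 62.4 and 128 ± 136 CPM at day 14, from 6.74 to 352 CPM over all fish. The hepatocyte sum averaged 131218 and 138549 CPM at day 8 and 141257 and 115741 CPM at day 14, in controls and exposed fish. Summed macrophage and neutrophil markers averaged 117 to 138 CPM and gut-type epithelium markers 50.9 to 63.4 CPM over the 4 groups. In bulk tissue, fewer cells of a type and less RNA per cell cannot be told apart.

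At day 8 the 91 antioxidant entries summed to 0.855% ± 0.119 of the TMM-adjusted library size in control fish and 0.892% ± 0.0902 in exposed fish. At day 14 the sum was 0.766% ± 0.0830 in control fish and 0.762% ± 0.0847 in exposed fish (SD, n = 10 each). These are not shares of total reads, from which the adjusted size can differ. For exposed fish 5 of day 14 it was 72.9 M, against 61.1 M reads. More than any other member, sepp1, selenoprotein P, set this sum: it alone made 0.475%, 0.494%, 0.394% and 0.420% of the adjusted size in the same order of groups. Reads per gene depend on transcript length, which was not used here, so these shares describe scaled read counts and not molecules. At the other end, 12 members did not pass the filter on low counts, with at most 14 reads in any fish, and 4 of them had no read in any fish: LOC106570901, LOC106600617, mt and LOC106576377. The others were gpx2, LOC106596058, LOC106577309, LOC106600592, LOC106603862, grxcr1, LOC106564458 and fep15.

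None of the 79 measured antioxidant genes passed the test for a lufenuron effect at day 8, at day 14, or for a difference of the effect between the days (edgeR quasi-likelihood test, Benjamini-Hochberg adjusted p under 0.05 over all tested genes). Among all tested genes, 0.467% were called higher and 1.16% lower in exposed fish at day 8, 1.63% in all, none was called at day 14 (0.00%), and 0.0493% were called for the difference, 0.0263% positive and 0.0230% negative. With such shares a set of 79 genes may hold no call without standing apart from other genes. The DESeq2 Wald test called 0 members in each of these 3 comparisons too, but its own filter left an adjusted p for 76 members at day 8, 13 at day 14 and 73 for the difference. At an unadjusted p under 0.05, 6 members were higher and 3 lower at day 8, 0 higher and 10 lower at day 14, and 1 was on the positive and 7 on the negative side of the difference. Those are 9, 10 and 8 of 79 members, where the same threshold took 16.1%, 8.02% and 10.8% of all tested genes. By direction it took 7.36% of all tested genes higher and 8.70% lower at day 8, and 3.55% and 4.46% at day 14. For the difference it took 5.66% on the positive and 5.12% on the negative side.

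The size of an effect that these data leave possible can be read from the intervals. The median log2 fold change of the members was 0.02 at day 8 and -0.06 at day 14, against 0.01 and 0.00 over all tested genes. For 68 of the 79 members the approximate 95% interval of the log2 fold change lay within a 2-fold change in either direction at day 8, and for 68 at day 14. Within a 1.5-fold change lay 50 members at day 8 and 51 at day 14. At day 14, 31 members had a positive log2 fold change, where at day 8 there were 44. Of all tested genes 50.8% were positive on each day, beside 39.2% of the members at day 14 and 55.7% at day 8. Scaling by total counts alone, without TMM, moved the median of all tested genes at day 14 from 0.00 to 0.19. The signs of the members under that scaling were not counted.

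**Figure D1:**
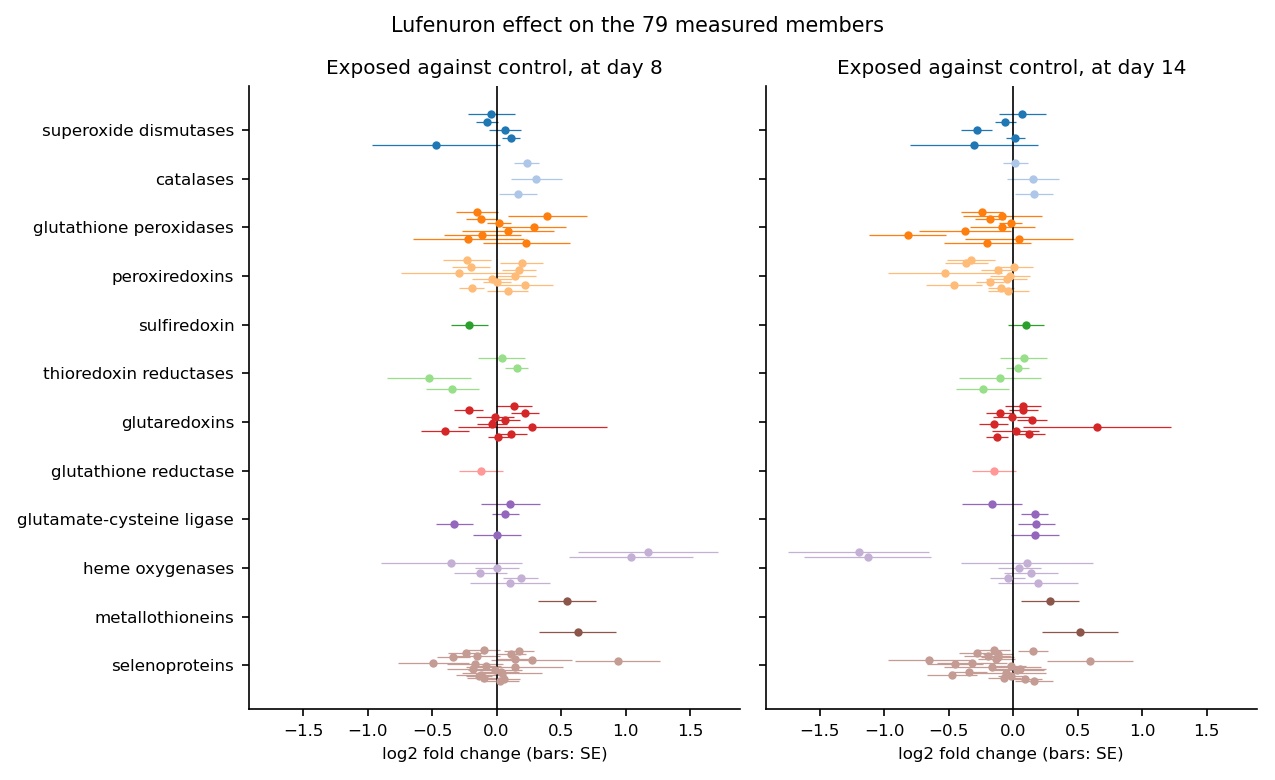
Log2 fold change of exposed against control fish for each of the 79 measured members (points, with bars of 1 SE), by family, at day 8 on the left and day 14 on the right. Most points lie near 0, and the pair of heme oxygenase-like genes stands at 1.17 and 1.04 at day 8 and at -1.20 and -1.13 at day 14, with wide bars and no call on either day.

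The superoxide dismutases showed no call with lufenuron. For sod1, the cytosolic copper-zinc enzyme, the lowest, median and highest levels were 122, 187 and 234 CPM in controls, against 138, 201 and 232 CPM in exposed fish at day 8, and 117, 190 and 219 CPM in controls, against 94.3, 143 and 183 CPM in exposed fish at day 14. The ranges overlapped on both days, although all 10 exposed fish of day 14 lay below the control median. Its log2 fold change was 0.07 ± 0.12 (SE) at day 8 and -0.29 ± 0.12 at day 14, with adjusted p of 0.845 and 0.555. For sod2, the mitochondrial manganese enzyme, the log2 fold changes were 0.11 ± 0.07 and 0.02 ± 0.07. The secreted enzyme sod3 was the most variable of the family, from 4.13 to 69.1 CPM over the 40 fish.

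Catalase, the peroxisomal enzyme that splits hydrogen peroxide, had 3 entries. LOC106564824, catalase-like, took most of the reads, at 620, 860 and 1092 CPM (lowest, median, highest) in controls and 861, 994 and 1191 CPM in exposed fish at day 8. The ranges overlapped, but every exposed fish lay above the control median. The log2 fold change was 0.23 ± 0.10, with an adjusted p of 0.206, so it is not called. At day 14 the levels were 566, 656 and 798 CPM in controls, against 531, 672 and 946 CPM in exposed fish, with a log2 fold change of 0.01 ± 0.10. The other catalase entries, cata and LOC106586175, had log2 fold changes of 0.16 ± 0.15 and 0.31 ± 0.20 at day 8 and 0.16 ± 0.15 and 0.15 ± 0.20 at day 14.

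Glutathione peroxidases reduce hydrogen peroxide and lipid peroxides with glutathione, and 9 of 13 entries were measured. LOC106612297, named as similar to the secreted form glutathione peroxidase 3, had the smallest p of all members at day 14. Its lowest, median and highest levels were 62.9, 135 and 282 CPM in controls, against 25.0, 91.2 and 138 CPM in exposed fish, and 9 of 10 exposed fish lay below the control median while the ranges overlapped. The log2 fold change was -0.82 ± 0.30 with an adjusted p of 0.486. At day 8 it was -0.11 ± 0.30, between 68.8 and 215 CPM in controls, against 39.4 and 215 CPM in exposed fish. The other glutathione peroxidase 3-like entry, LOC106604151, ranged from 34.4 to 394 CPM over all fish, with log2 fold changes of 0.09 ± 0.36 and -0.38 ± 0.36 at the 2 days. In the family, 8 of 9 measured members had a negative log2 fold change at day 14, with a median of -0.18. Over all tested genes, 50.8% were positive that day.

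Peroxiredoxins are thiol peroxidases, most of them recharged by thioredoxin. All 11 entries were measured, and 10 had a negative log2 fold change at day 14, with a median of -0.12. Among all tested genes the share with a positive value that day was 50.8%. The entry with most reads, tdx, named only peroxiredoxin, had medians of 296 CPM in controls against 287 CPM in exposed fish at day 8 and 305 and 311 CPM at day 14. Its log2 fold changes were 0.09 ± 0.16 and -0.04 ± 0.16. LOC106584278, similar to peroxiredoxin 6, had log2 fold changes of 0.17 ± 0.13 and -0.12 ± 0.13. Entries for the endoplasmic reticulum form, prdx4 and LOC106563587, stood at -0.46 ± 0.22 and -0.37 ± 0.17 at day 14 with adjusted p of 0.598 and 0.590. Sulfiredoxin, srxn1, which repairs over-oxidised peroxiredoxins, had log2 fold changes of -0.21 ± 0.14 and 0.10 ± 0.14.

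The enzymes that supply glutathione and reduced thioredoxin also had no call with lufenuron. The regulatory subunit of glutamate-cysteine ligase gsh0 had 5.32, 6.85 and 9.23 CPM (lowest, median, highest) in controls and 4.04, 5.28 and 8.90 CPM in exposed fish at day 8. Of the exposed fish 8 lay below the control median, and the ranges overlapped. Its log2 fold change was -0.33 ± 0.14 at day 8, with an adjusted p of 0.231, and 0.18 ± 0.14 at day 14, and the difference between the days was 0.51 ± 0.20 with an adjusted p of 0.322. The catalytic subunit gsh1 had log2 fold changes of 0.00 ± 0.18 and 0.17 ± 0.18, glutathione reductase gsr -0.12 ± 0.17 and -0.15 ± 0.17, and LOC106565239, thioredoxin reductase 1, 0.04 ± 0.18 and 0.08 ± 0.18. A mitochondrial form, glutaredoxin 2 (glrx2), had medians of 1.69 CPM in controls against 1.26 CPM in exposed fish at day 8, with a log2 fold change of -0.40 ± 0.19 and an adjusted p of 0.276. The other glutaredoxins had log2 fold changes of -0.22 to 0.28 at day 8, and glrx1, at 0.65 ± 0.57, stood highest at day 14.

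Heme oxygenase had the widest effects of the set. LOC106590030, heme oxygenase-like, had a lowest, median and highest level of 9.43, 26.2 and 90.7 CPM in controls and of 28.7, 64.4 and 149 CPM in exposed fish at day 8. All 10 exposed fish lay above the control median, and the ranges overlapped. The log2 fold change was 1.17 ± 0.54 with an adjusted p of 0.272. At day 14, 8 of the 10 controls lay between 2.21 and 6.48 CPM, and control fish 4 and 9 stood apart at 39.3 and 63.3 CPM. The exposed fish of that day had 1.81, 4.20 and 17.7 CPM, with 7 of 10 above the control median, and the log2 fold change was -1.20 ± 0.55 with an adjusted p of 0.592. The sign of this value thus goes against the medians, 3.71 CPM in controls against 4.20 CPM in exposed fish. The difference of the effects between the days was -2.37 ± 0.77 with an adjusted p of 0.241. Under the 51 alternatives, leave-one-out fits included, its adjusted p ran from 0.0923 to 0.576, so that no setting called it.

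A second heme oxygenase-like gene is LOC106590330. It had 5.02, 7.98 and 29.4 CPM in controls, against 8.53, 20.7 and 38.8 CPM in exposed fish at day 8, and each exposed fish exceeded the control median while the ranges overlapped. At day 14 it had 0.914, 2.16 and 20.0 CPM in controls, against 0.766, 2.10 and 7.07 CPM in exposed fish, and control fish 4 and 9 were again the highest of their group, at 20.0 and 18.3 CPM. The log2 fold changes were 1.04 ± 0.48 and -1.13 ± 0.49, with adjusted p of 0.269 and 0.573, and the difference was -2.17 ± 0.69 with an adjusted p of 0.228. Exocrine pancreas markers were at 14.1 CPM in control fish 4 and at 210 CPM in control fish 9. Their part in the levels of these fish was not tested on its own. With those markers as a covariate, neither LOC106590030 nor LOC106590330 was called with lufenuron on either day. The entries similar to heme oxygenase 2, the form that is made constantly in mammals, had smaller effects: LOC106601841 had 0.00 ± 0.17 at day 8 and 0.05 ± 0.17 at day 14, and LOC106606500 had 0.19 ± 0.14 and -0.04 ± 0.14.

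**Figure D2:**
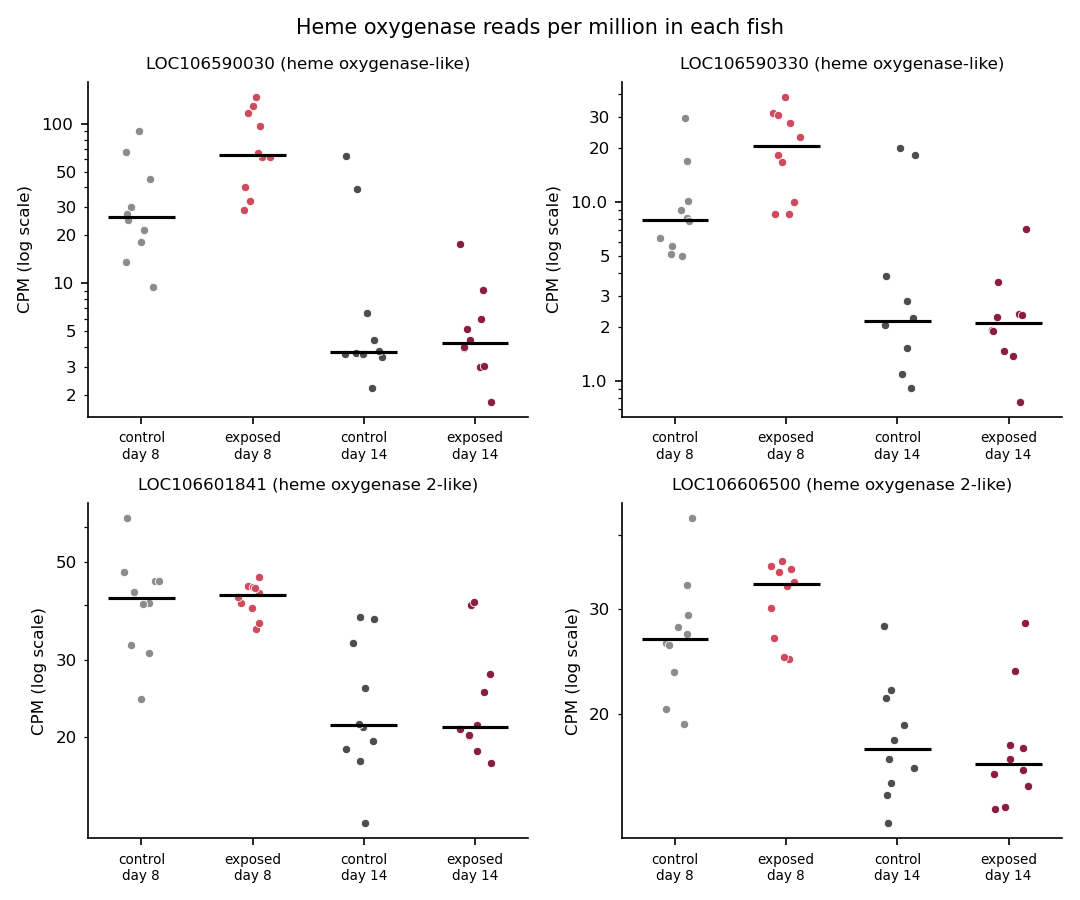
CPM of 4 heme oxygenase genes in each fish (points, log axes) by group, with the group median as a line. In the upper panels the exposed fish of day 8 lie highest and most day 14 fish lie below every day 8 fish; the exceptions are 2 controls at 39.3 and 63.3 CPM on the left and 20.0 and 18.3 CPM on the right, and 1 exposed fish at 17.7 and 7.07 CPM.

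Metallothioneins, cysteine-rich proteins that bind zinc and copper, were measured for 2 of 3 entries. LOC100136589, metallothionein A, had 10.7, 28.1 and 64.3 CPM (lowest, median, highest) in controls and 25.5, 49.2 and 85.8 CPM in exposed fish at day 8. LOC100136581, metallothionein B, had 11.7, 17.3 and 27.1 CPM and 14.1, 27.4 and 39.4 CPM in the same groups. For each gene 9 of 10 exposed fish lay above the control median, and the ranges overlapped. The log2 fold changes at day 8 were 0.63 ± 0.30 for metallothionein A and 0.55 ± 0.23 for metallothionein B, with adjusted p of 0.281 and 0.206. At day 14 they were 0.52 ± 0.30 and 0.28 ± 0.23, with medians of 22.3 and 31.5 CPM for metallothionein A and 19.8 and 27.1 CPM for metallothionein B in controls and exposed fish.

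Among the selenoproteins, LOC106580619, selenoprotein Pa-like, had the smallest p of all members at day 8. It had 26.1, 36.6 and 53.8 CPM (lowest, median, highest) in controls and 28.5, 49.1 and 339 CPM in exposed fish. One exposed fish, number 3, set the highest value, and the next was 61.6 CPM. The log2 fold change was 0.94 ± 0.33 with an adjusted p of 0.130, and 0.21 was left without exposed fish 3, with an adjusted p of 0.686. This fish also had 165 CPM of exocrine pancreas markers, 161 CPM of gut-type epithelium markers, the highest of its group, and 1021 CPM of stroma markers. Fits with pancreas or stroma markers as a covariate were among 52 alternatives, over which the value ran from 0.08 to 1.03. The adjusted p over these ran from 0.0645 to 0.953. No fit took gut-type markers as a covariate, and the part of any marker in this fish was not tested on its own. At day 14 the levels were 14.1, 23.4 and 47.4 CPM in controls, against 24.2, 39.0 and 83.5 CPM in exposed fish, all 10 above the control median, with a log2 fold change of 0.59 ± 0.33 and an adjusted p of 0.671.

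Another selenoprotein P gene, LOC106569257, selenoprotein Pb-like, had 563, 672 and 936 CPM in controls, against 365, 568 and 767 CPM in exposed fish at day 8, with 8 of 10 exposed fish below the control median and overlapping ranges. Its log2 fold change was -0.34 ± 0.13 with an adjusted p of 0.166, and scaling by total counts alone put it at -0.42 with an adjusted p of 0.0474, the only lufenuron call of any member under any setting tried. The adjusted p over its 52 alternatives ran from 0.0474 to 0.516. For sepp1 the medians were 4781 CPM in controls against 4920 CPM in exposed fish at day 8 and 3810 and 4023 CPM at day 14, with log2 fold changes of 0.06 ± 0.13 and 0.09 ± 0.13. The membrane selenoproteins of the endoplasmic reticulum, sels and selk, which take part in the removal of misfolded proteins, had log2 fold changes of -0.48 ± 0.19 and -0.35 ± 0.14 at day 14, with adjusted p of 0.537 and 0.547. Of the 22 measured selenoproteins, 16 had a negative log2 fold change at day 14, with a median of -0.12. That day 50.8% of all tested genes had a positive value.

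**Figure D3:**
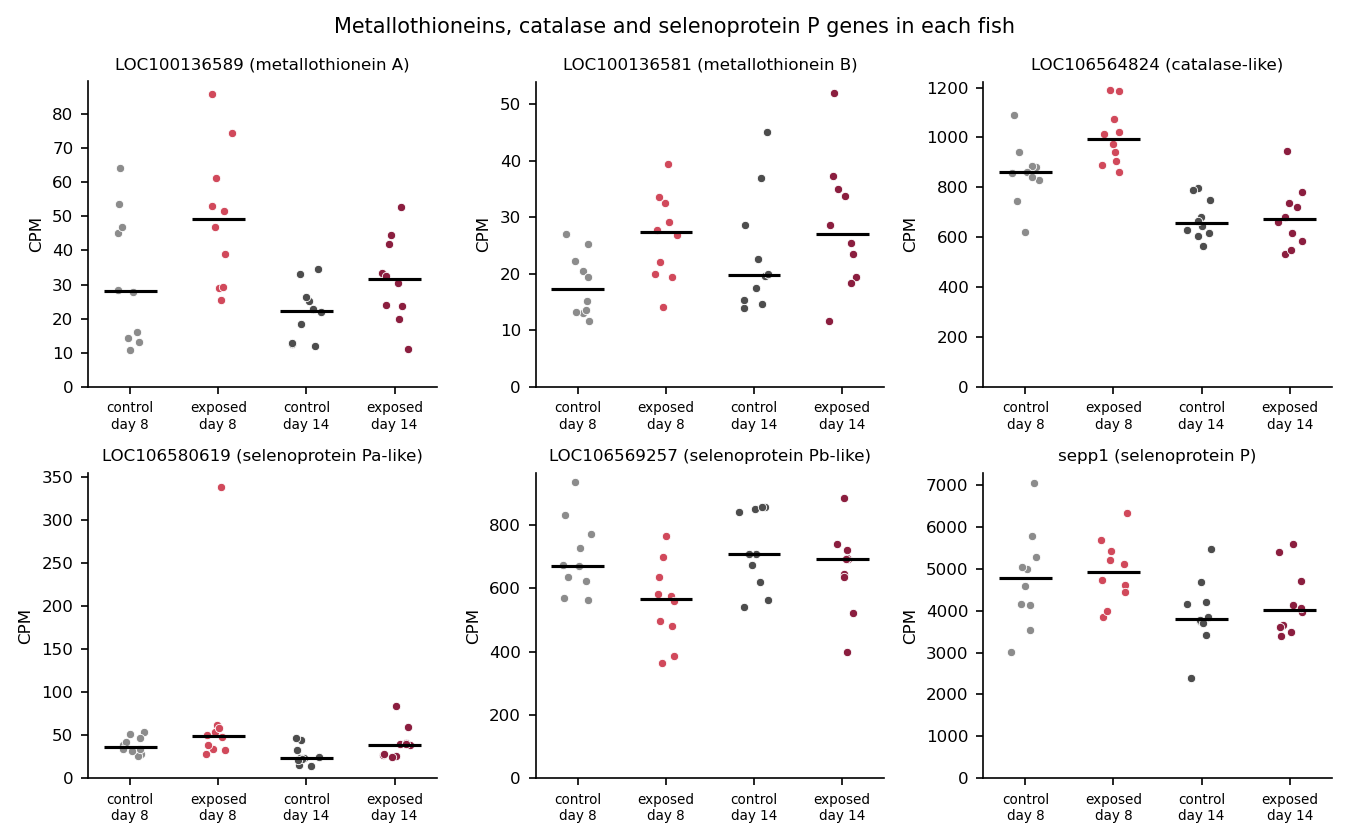
CPM of 2 metallothioneins, a catalase-like gene and 3 selenoprotein P genes in each fish (points, linear axes from 0) by group, with the group median as a line. The exposed fish at 339 CPM stands far above all others for LOC106580619, and for the other genes the ranges of control and exposed fish overlap on both days.

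More antioxidant genes differed between the sampling days than between treatments. In control fish 12 of 79 members were called between day 14 and day 8, 7 higher and 5 lower, or 15.2% of the members, where 19.3% of all tested genes were called (10.4% higher and 8.97% lower). In exposed fish 24 were called, 10 higher and 14 lower, or 30.4%, where 34.9% of all tested genes were called (17.7% higher and 17.2% lower). In total the members' shares lay below those of all genes; by direction, the 17.7% of members called lower in exposed fish lay near the 17.2% of all genes. Scaling by total counts alone turned the 10 higher and 14 lower of exposed fish into 16 higher and 6 lower, and it moved the median log2 fold change of all tested genes from -0.03 to 0.16. The days differed in fish, and anything else that differed between them cannot be told apart from time.

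The control and exposed comparisons between days use different fish, so the lists of called members can be compared. Of the members 11 were called in both with the same sign, 6 higher and 5 lower, and 0 with opposite signs. These are 91.7% of the control list and 45.8% of the exposed list, and for all tested genes the corresponding shares were 77.8% and 43.1%. The sign was the same for 61 of 79 members, or 77.2%, against 76.7% of all tested genes. For no member did the change with day differ between exposed and control fish by the test of the difference given above.

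**Figure D4:**
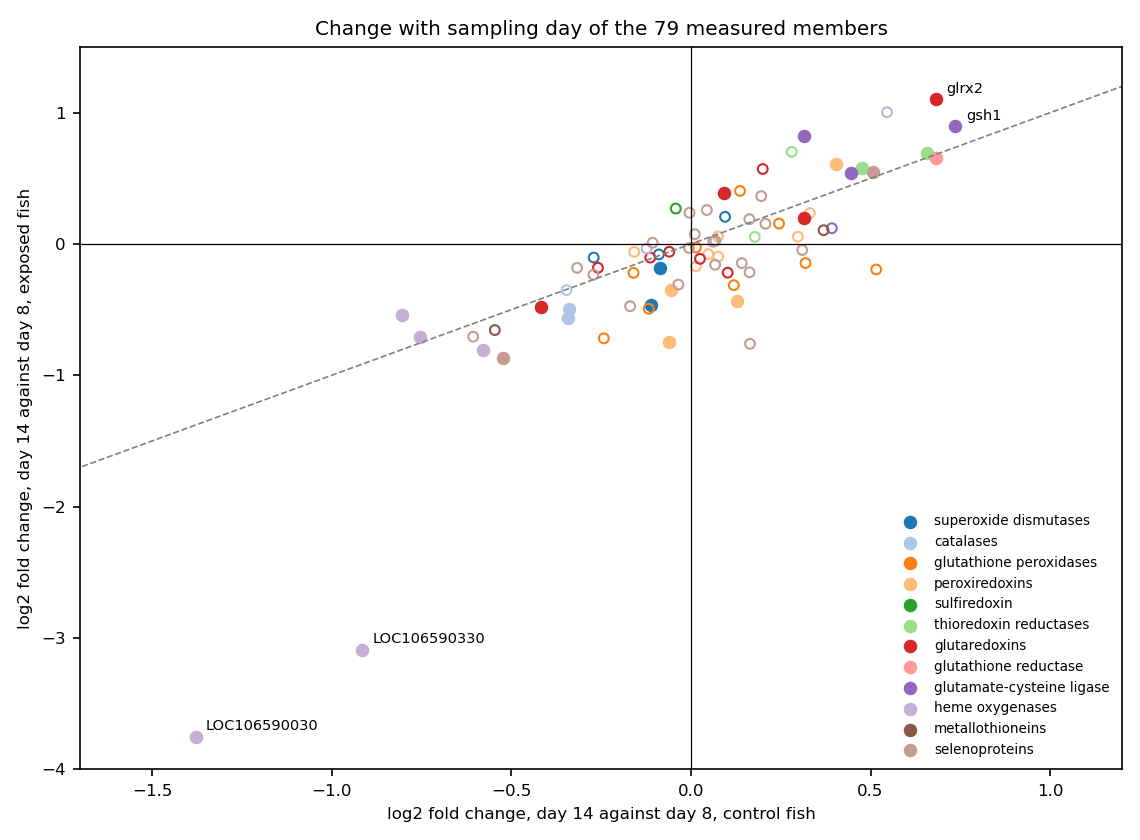
Log2 fold change of day 14 against day 8 in control fish (horizontal axis) and exposed fish (vertical axis) for the 79 measured members, coloured by family; filled points passed the test in at least 1 of the 2 comparisons and the dashed line marks equal change. The labelled points gsh1 and glrx2 lie at the upper right, at 0.74 and 0.68 in control and 0.90 and 1.10 in exposed fish, and the heme oxygenase-like pair lies far below the line at -3.75 and -3.09 in exposed fish.

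Several enzymes of glutathione synthesis and reduction were among the members called higher at day 14. The catalytic subunit of glutamate-cysteine ligase, gsh1, had 16.4, 22.8 and 39.5 CPM (lowest, median, highest) in controls at day 8 and 24.5, 39.3 and 65.9 CPM at day 14. In exposed fish it had 19.7, 22.8 and 32.1 CPM at day 8 and 24.9, 44.8 and 75.4 CPM at day 14. All 10 fish of day 14 lay above the day 8 median of their kind, and the ranges overlapped. The log2 fold change was 0.74 ± 0.18 in controls and 0.90 ± 0.19 in exposed fish, with adjusted p of 0.00426 and 2.0e-04.

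A second catalytic gene, LOC106612605, rose by 0.45 ± 0.10 and 0.54 ± 0.10, with 9 of 10 control and 10 of 10 exposed fish of day 14 above the day 8 median. The regulatory gene gsh0 rose in exposed fish by 0.82 ± 0.14, with an adjusted p of 1.8e-05 and all 10 fish above the day 8 median, and stood at 0.31 ± 0.14 in controls with an adjusted p of 0.112. The other regulatory entry, LOC106584335, was not called, at 0.39 ± 0.23 and 0.12 ± 0.23. Thus 2 of the 4 ligase genes were called higher in controls and 3 in exposed fish, where 10.4% and 17.7% of all tested genes were.

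Glutathione reductase, gsr, which returns oxidised glutathione to its reduced form, rose by 0.68 ± 0.17 in controls and 0.65 ± 0.17 in exposed fish, with adjusted p of 0.00473 and 0.00317. Its medians went from 21.0 to 34.1 CPM and from 19.8 to 29.9 CPM, with 9 of 10 and 8 of 10 fish of day 14 above the day 8 median. LOC106565239, thioredoxin reductase 1, rose by 0.66 ± 0.18 and 0.70 ± 0.18, from medians of 49.6 and 47.5 CPM to 80.2 and 79.9 CPM, with adjusted p of 0.00930 and 0.00266. The mitochondrial thioredoxin reductase txnrd2 rose in exposed fish by 0.58 ± 0.21 and stood at 0.47 ± 0.20 in controls with an adjusted p of 0.0986. Another thioredoxin reductase 1 entry, LOC106583642, was called in neither kind of fish. Its medians went from 13.2 to 14.5 CPM in controls and from 14.8 to 15.8 CPM in exposed fish. Summed erythrocyte markers were also higher at day 14, as given above. With the level of haemoglobin genes as a covariate, gsr stood at 0.51 and 0.46 and LOC106565239 at 0.47 and 0.48 in controls and exposed fish, with adjusted p from 0.0762 to 0.122, and none of these 4 calls held. That covariate also ended the control call of gsh1, at 0.53 with an adjusted p of 0.0766, and lowered the members called higher to 2 in controls and 5 in exposed fish. Over all tested genes it lowered those called higher from 3150 to 1565 in controls and from 5374 to 3952 in exposed fish.

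**Figure D5:**
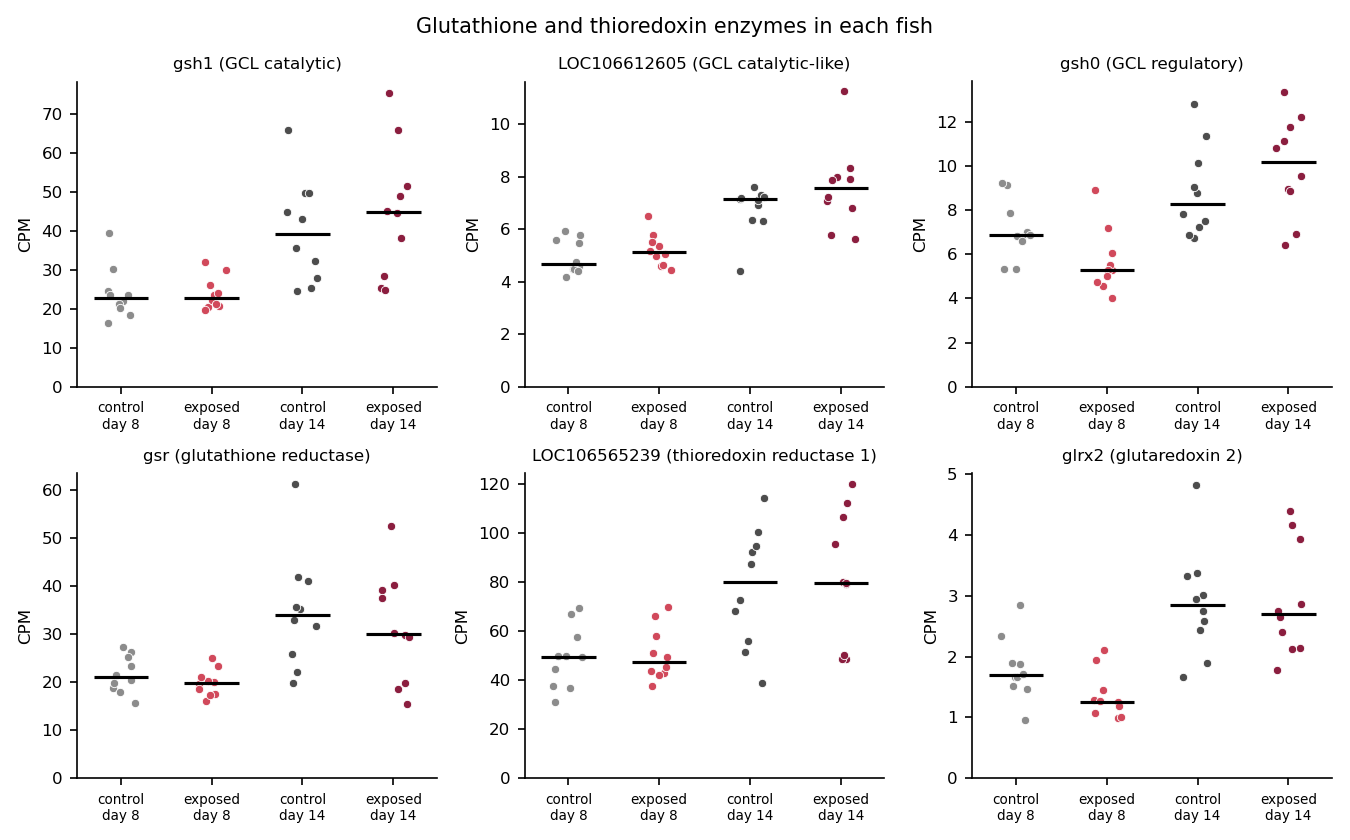
CPM of 6 genes of glutathione synthesis, glutathione and thioredoxin reduction and glutaredoxin 2 in each fish (points, linear axes from 0) by group, with the group median as a line; GCL stands for glutamate-cysteine ligase. The medians of day 14 lie above those of day 8 for each gene in both kinds of fish, and the ranges of the days overlap for all 6 genes in both kinds of fish.

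Glutaredoxins moved both ways. The entry glrx2 had 0.954, 1.69 and 2.84 CPM in controls at day 8 and 1.66, 2.84 and 4.82 CPM at day 14, and 0.995, 1.26 and 2.11 CPM and 1.78, 2.70 and 4.39 CPM in exposed fish. It rose by 0.68 ± 0.19 in controls and 1.10 ± 0.19 in exposed fish, with adjusted p of 0.00814 and 1.5e-05, and the ranges of the days overlapped. With stroma markers as a covariate its control value was 0.51 with an adjusted p of 0.0650, and without the fish over 50 CPM of pancreas markers it was 0.51 with an adjusted p of 0.110. LOC106565191, glutaredoxin-1-like, fell by 0.42 ± 0.14 and 0.48 ± 0.14 on the log2 scale, with all 10 control and 9 of 10 exposed fish of day 14 below the day 8 median. LOC106571612, glutaredoxin-related protein 5, known in yeast and vertebrates for iron-sulphur cluster assembly, rose in exposed fish by 0.39 ± 0.11 and stood at 0.09 ± 0.11 in controls. Its call was lost with haemoglobin genes as a covariate, with stroma markers as a covariate and without the fish over 50 CPM of pancreas markers, at 0.28, 0.29 and 0.28 with adjusted p of 0.0908, 0.0735 and 0.234. The entry glrx5, glutaredoxin 5, was called in neither kind of fish. Its medians went from 12.3 to 13.2 CPM in controls and from 12.7 to 11.7 CPM in exposed fish. Of the exposed fish of day 14, 8 of 10 lay below the day 8 median of glrx5. The thioltransferase glrx rose in controls by 0.31 ± 0.11, with an adjusted p of 0.0484, and stood at 0.20 ± 0.11 in exposed fish. It was the single member called in controls and not in exposed fish.

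Of the 7 measured heme oxygenase entries, 3 were called lower in controls and 5 in exposed fish. Over all tested genes, 8.97% and 17.2% were called lower. LOC106601841, heme oxygenase 2-like, had 24.3, 41.5 and 62.8 CPM (lowest, median, highest) in controls at day 8 and 12.8, 21.3 and 37.4 CPM at day 14, and 35.3, 42.0 and 46.1 CPM and 17.4, 21.1 and 40.6 CPM in exposed fish. All 20 fish of day 14 lay below the day 8 median of their kind, while the ranges overlapped. It fell by 0.75 ± 0.17 in controls and 0.71 ± 0.17 in exposed fish, with adjusted p of 0.00177 and 0.00116. LOC106606500 fell by 0.58 ± 0.14 and 0.81 ± 0.14, and LOC106601881, also heme oxygenase 2-like, by 0.80 ± 0.21 and 0.54 ± 0.21. Outside the heme oxygenase-like pair, the remaining entries LOC106607056 and LOC106601306, were not called, at -0.12 ± 0.31 and 0.55 ± 0.53 in controls and -0.04 ± 0.31 and 1.00 ± 0.54 in exposed fish.

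The heme oxygenase-like pair had the largest falls of the set in exposed fish. LOC106590030 fell by 3.75 ± 0.60 and LOC106590330 by 3.09 ± 0.52 on the log2 scale, with adjusted p of 6.7e-06 and 1.4e-05, and for both the exposed fish of the 2 days did not overlap. The share of all tested genes without such an overlap was not computed, so this is not shown to be particular to the pair. The calls of both genes held under all 52 alternatives, with log2 fold changes of -4.10 to -3.23 and -3.39 to -2.64. In controls the values were -1.38 ± 0.55 and -0.92 ± 0.48, with adjusted p of 0.0710 and 0.187, and the days overlapped through fish 4 and 9 of day 14. Without control fish 9 they were -2.13 and -1.33, with adjusted p of 0.00383 and 0.0495, and without control fish 4 they were -1.73 and -1.42, with adjusted p of 0.0234 and 0.0267. LOC106590030 was also called in controls by the DESeq2 Wald test, at -1.37 with an adjusted p of 0.0431, with pancreas markers as a covariate, at -1.60 with an adjusted p of 0.0338, and without the fish over 50 CPM of those markers, at -2.02 with an adjusted p of 0.0262. LOC106590330 was not called in controls under these 3 settings.

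Of the 3 catalases and 5 superoxide dismutases, 1 was called in controls and 4 in exposed fish, all lower at day 14. Among all tested genes, 8.97% and 17.2% were called lower. Catalase-like LOC106564824 fell by 0.34 ± 0.10 in controls and 0.56 ± 0.10 in exposed fish, with adjusted p of 0.00998 and 1.6e-05 and all 20 fish of day 14 below the day 8 median of their kind. With stroma markers as a covariate the control value was -0.31 with an adjusted p of 0.0511. LOC106586175, another catalase-like gene, fell in exposed fish by 0.50 ± 0.20, with an adjusted p of 0.0482, and stood at -0.34 ± 0.20 in controls. In exposed fish sod1 fell by 0.46 ± 0.12, with all 10 fish of day 14 below the day 8 median and an adjusted p of 0.00256, and it stood at -0.11 ± 0.12 in controls. Scaling by total counts alone put the exposed value at -0.27 with an adjusted p of 0.0596, and it was -0.42 with an adjusted p of 0.109 without the fish over 50 CPM of pancreas markers. The mitochondrial sod2 was just past the threshold there, at -0.18 ± 0.07 with an adjusted p of 0.0470, and it lost that call without any 1 of 32 of the 40 fish.

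Among the peroxiredoxins, prdx4 fell by 0.75 ± 0.22 in exposed fish, LOC106563587 by 0.43 ± 0.17 and LOC106584278 by 0.35 ± 0.13. In controls these genes stood at -0.06 ± 0.22, 0.13 ± 0.17 and -0.06 ± 0.13. LOC106564567, similar to the cytosolic peroxiredoxin 1, was the only peroxiredoxin called higher. It rose by 0.40 ± 0.15 in controls and 0.61 ± 0.15 in exposed fish, with adjusted p of 0.0488 and 0.00129. Its control call was lost without any 1 of 19 of the 40 fish. The entry prdx1, peroxiredoxin 1, has more reads and was called in neither kind of fish. From day 8 to day 14 the medians of prdx1 went from 27.9 to 28.2 CPM in controls and from 26.8 to 30.7 CPM in exposed fish. No glutathione peroxidase and no metallothionein was called between days in either kind of fish, where 19.3% of all tested genes were in controls and 34.9% in exposed fish.

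Of the 22 measured selenoproteins, selja rose and LOC106580619 fell in exposed fish, and none was called in controls. Over all tested genes, 34.9% were called in exposed fish and 19.3% in controls. For selja, selenoprotein Ja, the log2 fold change was 0.55 ± 0.21 with an adjusted p of 0.0358, beside 0.51 ± 0.21 in controls with an adjusted p of 0.0792. LOC106580619 stood at -0.87 ± 0.33 with an adjusted p of 0.0387, a call that rests on exposed fish 3 of day 8: leaving that fish out gave -0.14 with an adjusted p of 0.649. Selenoprotein P itself, sepp1, stood at -0.27 ± 0.13 in controls and -0.23 ± 0.13 in exposed fish, with adjusted p of 0.139 and 0.161.

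Genes that feed or control these enzymes were described from 8 lists chosen by gene description. With lufenuron at day 8, 2 of 23 measured members of the NRF2 and KEAP1 list were called higher: LOC106600841, nuclear factor erythroid 2-related factor 1-like, by 1.53 ± 0.24, from 8.59 ± 2.96 to 24.8 ± 4.92 CPM (SD, n = 10 each), and LOC106564503, a KEAP1 gene, by 0.47 ± 0.12, from 16.9 ± 3.86 to 23.4 ± 4.43 CPM. Their adjusted p were 0.00178 and 0.0389. LOC106600841 is named for factor 1 and not for NRF2, which is factor 2, and no NRF2 entry was called with lufenuron. Of 40 measured zinc handling genes, slc39a10, a zinc importer, was called lower by 0.51 ± 0.13 with an adjusted p of 0.0389. Over all tested genes, 142 were called higher and 352 lower at day 8, or 0.467% and 1.16%. With stroma markers as a covariate these became 16 and 13. Without the fish over 50 CPM of exocrine pancreas markers, which left 8 control and 6 exposed fish at day 8, the edgeR test called 0 genes of the whole table on that day, and the adjusted p were 0.113 for LOC106600841, at 1.44, 0.171 for LOC106564503, at 0.50, and 0.249 for slc39a10, at -0.47. LOC106600841 was called under 11 of 12 alternatives, a count that leaves out the fits without 1 fish, and LOC106564503 and slc39a10 each under 5 of 12. No member was called at day 8 among 6 thioredoxins and related proteins, 22 genes of glutathione supply, 26 of NADPH supply, 53 of iron and haem handling, 10 of selenium handling and 23 sources of oxidants. None of the 8 lists had a call at day 14 or for the difference between the days. Their medians at day 8 ran from -0.07 for zinc handling to 0.30 for NADPH supply, and at day 14 from -0.15 for thioredoxins to 0.16 for sources of oxidants.

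The counts of list members between the days stand against shares over all tested genes of 10.4% higher and 8.97% lower in controls and 17.7% higher and 17.2% lower in exposed fish. Of 23 measured members of the NRF2 and KEAP1 list, 8 were higher and 1 lower in controls, and 6 were higher and 3 lower in exposed fish. The NRF2 entries did not move together: nf2l2 rose by 0.44 ± 0.10 in controls and was not called in exposed fish, and LOC106586247, NRF2-like, fell by 0.36 ± 0.10 in controls and 0.29 ± 0.10 in exposed fish, while LOC106575067, also NRF2-like, rose by 0.47 ± 0.17 in exposed fish. Of the others, LOC106588843, nuclear factor erythroid 2-related factor 1-like, rose by 0.92 ± 0.12 in controls and 1.30 ± 0.13 in exposed fish, and LOC106589545, similar to the partner protein MafF, by 0.98 ± 0.19 and 0.95 ± 0.19. Of 22 genes of glutathione supply 3 were higher and 0 lower in controls and 6 higher and 2 lower in exposed fish, among them LOC106586691, similar to cystathionine beta-synthase, an enzyme on the path to cysteine, by 1.27 ± 0.26 and 1.76 ± 0.27. For the 26 genes of NADPH supply the calls were 2 higher and 1 lower in controls and 1 higher and 10 lower in exposed fish. LOC106586335, a cytoplasmic isocitrate dehydrogenase-like gene, fell by 0.75 ± 0.12 in exposed fish. Another entry with that description, LOC106582376, rose by 0.62 ± 0.12 in controls and 0.40 ± 0.12 in exposed fish. The 23 sources of oxidants had 0 higher and 2 lower in controls and 1 higher and 7 lower in exposed fish. Among them xdh, xanthine dehydrogenase, fell by 0.33 ± 0.11 and 0.87 ± 0.11. LOC106580712, LOC106590278 and LOC106601740 were also among the 7, with an SD above the mean in exposed fish at day 8. Their levels there were 1.77 ± 4.41, 13.1 ± 32.3 and 3.84 ± 4.69 CPM (SD, n = 10), and the part of single fish was not tested.

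Of 6 thioredoxins and related proteins 1 was lower in controls and 2 in exposed fish, with 0 higher in either. LOC106570200, similar to the thioredoxin-binding protein TXNIP, fell by 1.93 ± 0.36 and 2.65 ± 0.37, from 217 ± 123 to 56.9 ± 52.3 CPM in controls and from 283 ± 78.0 to 45.3 ± 29.7 CPM in exposed fish. The 53 iron and haem handling genes had 4 higher and 2 lower in controls and 8 higher and 2 lower in exposed fish: blvrb, a biliverdin reductase, rose by 0.66 ± 0.15 and 0.86 ± 0.15, and slc40a1, the iron exporter ferroportin, fell by 1.05 ± 0.22 and 0.99 ± 0.22. The 10 selenium handling genes had 1 higher and 0 lower in controls and 3 higher and 1 lower in exposed fish, with scly, selenocysteine lyase, up by 0.64 ± 0.15 and 0.89 ± 0.15. The 40 zinc handling genes had 2 higher and 2 lower in controls and 9 higher and 7 lower in exposed fish.

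Copies that share a name, with the ending -like left out, were compared across fish after group means had been removed from log2(CPM + 0.1). The 2 measured entries with most reads under each name were used. Metallothionein A and B were taken to share a name, and so were selenoprotein T1a-like and selenoprotein T-like. There were 20 such pairs over 40 fish, with a median Pearson r of 0.60, an r above 0 in 18 and an adjusted permutation p of r under 0.05 in 15. Pairs of other genes were not compared, so these counts cannot show that copies go together more than other genes. The closest pair was the heme oxygenase-like genes LOC106590030 and LOC106590330, with r = 0.94 and Spearman's rho = 0.88, and r = 0.90 without the 2 fish farthest from the median. Its permutation p was 1e-05, the smallest that 100000 resamples can give, with an adjusted p of 3.3e-05 over the 20 pairs. The 15 kDa selenoprotein-like pair followed at r = 0.93 and the heme oxygenase 2-like pair at r = 0.88. At the other end stood glutaredoxin 1 with r = -0.15 and peroxiredoxin 6 with r = -0.03, with adjusted p of 0.402 and 0.852. How the authors' counting assigned reads shared between near-identical copies is not stated in the sources used here, and its part in these correlations was not tested.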

How the data were processed

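Whole-number read counts per gene were deposited by the authors for 40 fish, unnormalized; HTSeq, HISAT2, DESeq2 and Cufflinks are listed, with no role, per the submitters' processing notes. The sources used here do not give genome build, annotation or strand handling, so no coordinates are printed; values of near-identical, overlapping or antisense genes are uncertain. In all, 58 members matched a symbol of the assembly Ssal_v3.1.

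The analysis ran in R 4.3.3 with limma 3.58.1 and edgeR 4.0.16: filterByExpr (minimum count 10, minimum total 15), TMM, a robust quasi-likelihood fit with 1 mean per group over 40 fish, 5 contrasts, and Benjamini-Hochberg adjustment over 30397 genes. The fit was tested on simulated data. The standard error is the log2 fold change divided by the root of F, and intervals are 1.96 standard errors each way. DESeq2 1.42.0 and other settings were alternatives.

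Members, lists and tests were chosen with earlier results of these data known. Named members are those called with lufenuron or, with none called, the 3 of smallest p in each direction; per family, the 2 of smallest p called between days in controls and the 2 with most reads. Also named, after their values were seen, are ccs, sod3, glrx, glrx1, prdx1, prdx4, txnrd2, selja, LOC106586175, LOC106601881 and the members without a test. List entries that only resembled a name were set aside by description once the files had been seen. Of the genes that a list calls, up to 3 of smallest p were eligible for naming. A rule for genes with patterns like called members named none. The pairs of copies, and the settings run on the heme oxygenase-like pair beyond those listed for named genes, were chosen with the data already seen. So were the settings run on the list genes called with lufenuron, and LOC106586247, LOC106575067, LOC106607056, LOC106601306 and LOC106590278 as named genes. The smallest chi-square per gene between any 2 of 780 library pairs was 50.4, so no library was a duplicate. Same-numbered fish of different groups had correlations of their deviations from -0.24 to 0.30. The best match had the same number for 0 to 4 of 10 fish, with 4 between the control groups of the 2 days. These values do not show that the numbers pair fish, and they cannot exclude it.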

Additional observations from a re-analysis of the deposited data

Results flagged for a closer look

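For 33 named members, each group of 10 fish was searched for a highest or lowest fish far from the rest, relative to the group's range. Of 132 groups, 12 had one. The limit used takes about 1 in 20 groups only if values are normally distributed. Here it was applied to CPM, and some members were named for a small p in these data. The count of 12 therefore cannot be set against a chance rate. In controls at day 8, fish 3 had 215 CPM of LOC106612297, next 128, and 19.1 CPM of sels, next 9.80, and fish 6 had 29.4 CPM of LOC106590330, next 16.9. Among exposed fish at day 8, fish 3 had 339 CPM of LOC106580619, next 61.6, and 215 CPM of LOC106612297, next 130, and fish 10 had 20.1 CPM of LOC106584335, next 14.1. Of the controls at day 14, fish 8 had 4.41 CPM of LOC106612605 and fish 7 had 2.90 CPM of LOC106571612, each the lowest, with the next at 6.33 and 5.25 CPM, and fish 6 had 61.2 CPM of gsr, next 41.9. Control fish 6 and 7 of that day had a recorded weight of 18 g each, at lengths of 11.9 and 16.5 cm. Of the exposed fish at day 14, fish 2 had 7.07 CPM of LOC106590330, next 3.58, and 17.7 CPM of LOC106590030, next 9.15, and fish 1 had 11.3 CPM of LOC106612605, next 8.33.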

How the results depend on the processing

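Counts of 0 members called with lufenuron on either day and for the difference came again under RLE scaling, both other filters and DESeq2. The covariates and every fit without 1 fish gave them too. Total counts as the only scaling was the exception, with 1 member lower at day 8. These counts had little room to differ and do not show robustness. At day 14 the edgeR settings called 0 genes of the whole table, not counted for the fits without 1 fish. Stroma markers as a covariate left 16 higher and 13 lower genes at day 8. For the difference, RLE scaling called 9 positive and 7 negative genes. Total counts moved the median log2 fold change of all tested genes to 0.19 at day 14 and 0.25 for the difference. A fit of only the groups of a contrast gave no value for the difference. Between days, the 7 members higher in controls became 2 with haemoglobin genes as a covariate, 4 with stroma markers as a covariate, a setting added after the data were seen, and 4 without the fish over 50 CPM of pancreas markers. Over all tested genes, 3150 higher in controls became 1565, 1903 and 2038 under the same settings. The 10 higher in exposed fish became 16 with total counts and 5 with haemoglobin genes as a covariate, where 5374 of all tested genes became 7917 and 3952. The 14 lower became 6 with total counts, 8 with no filter and 7 without the fish with pancreas markers, which left 4 exposed fish at day 14. Over all tested genes, 5235 lower in exposed fish became 2548, 5204 and 2424 under the same settings. Fits without 1 fish gave 5 to 9 higher and 4 to 7 lower in controls, and 9 to 12 higher and 8 to 15 lower in exposed fish, the lowest without exposed fish 7 of day 14 and 9 without fish 3, 4, 5 or 10; lufenuron and difference counts stayed at 0 to 0. In 2 cases the sign reversed: LOC106580619 between days in exposed fish was 0.0562 without the fish with pancreas markers, and sod2 was 0.0044 with total counts.

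The shared replicate numbers were not taken as pairs of fish in the main fit. With a replicate block the counts were 0 with lufenuron and for the difference, 6 higher and 6 lower in controls, and 10 higher and 11 lower in exposed fish. Of the named members, the block ended the control call of LOC106565191, adjusted p = 0.0672, and the exposed calls of LOC106580619, 0.233, and sod2, 0.0569, and the heme oxygenase-like pair was called in controls with it, at -2.01 and -1.34. Fits without 1 fish ended the exposed calls of LOC106563587 for 12 fish, LOC106584278 for 10 and LOC106580619 for 9, and the control call of LOC106565191 for 10. Leaving out the 3 control fish of day 14 recorded at under 20 g ended the control calls of LOC106565239, LOC106565191 and LOC106564567. They stood at 0.53, -0.40 and 0.42, with adjusted p of 0.0554, 0.0865 and 0.0543. Total counts ended the exposed calls of sod1, sod2, LOC106563587, LOC106565191, LOC106580619 and LOC106584278. Leaving out the fish with pancreas markers ended those of sod1, sod2, LOC106563587, LOC106571612, LOC106580619 and LOC106584278. The calls of glrx, prdx4, txnrd2, selja, LOC106586175 and LOC106601881 were not followed gene by gene over the settings. The causes were not tested. Depth limits most the 12 members that were not tested, with at most 14 reads in any fish.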
